A study of Homo sapiens with 2 samples.

Results

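CpG island peaks lying in introns and intergenic DNA were examined in the liver tumour line PLC8024, which is human and established. They were all peaks on chromosomes 1 to 22 and X whose detailed annotation was a CpG island and whose annotation class was not a promoter. The control list held 2459 such peaks among 46458 (5.29%, exact 95% interval 5.09 to 5.50), and the drug list held 1500 among 26839 (5.59%, 5.32 to 5.87). They covered 1428212 bp in control and 675300 bp in drug.

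The study profiled chromatin by CUT&Tag, in which an antibody steers a transposase to its target in permeable nuclei, and the series concerns target genes around KIF11, a mitotic motor protein. The 2 groups were control cells and cells treated for 6 hours with a drug at 10 nM, with 1 library each, and both came from the same cell line in the same medium. The labels gave no name for the drug or the antibody. With 1 library per group there was no replicate spread and no test, and the exact Clopper-Pearson intervals given with shares cover counting error only. Read totals were unknown, so weaker binding, fewer cells and fewer reads could not be told apart. Peak scores are the authors' own values, and they rank a peak within its own list.

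A CpG island is a stretch of DNA that is rich in G and C and has kept its CG dinucleotides, which are lost from most of the genome because methylated cytosine mutates readily. Most islands mark gene starts, and they usually stay unmethylated. Islands inside genes or between genes, often called orphan islands, can hold unannotated or alternative start sites, starts of noncoding RNAs, or sites bound by Polycomb proteins.

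The label "away from promoters" held by annotation class and not by distance. Of the control peaks, 1546 were classed as intron and 913 as intergenic, and 0 as exon, transcription end, untranslated region or noncoding transcript. In both lists the CpG island detail stood only with the intron and intergenic classes. These counts therefore describe the annotation and do not show that islands avoid the other classes. Among drug peaks overlapping control island peaks, 43 were classed as exon and 21 as 5′ untranslated region. The nearest peak centre lay 101 bp from an annotated start, since the promoter class took everything closer. A total of 976 control peaks (39.7%) were centred within 1000 bp of a start, and all of them lay downstream of it. Conversely, 0 promoter peaks carried a CpG island as their detailed annotation, so islands at promoters were not part of this set. KIF11 had no such peak in either list.

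Sequences were shown for 9 start windows that lay wholly inside a control island peak, to let the base content behind the annotation be seen. Each is a RefSeq window of 300 bases around a gene start on GRCh38.p14, written 5′ to 3′ in lower case with every CG dinucleotide in capitals. NPM1 was the strongest island peak, BRAF the strongest without a drug peak, EPC2 the widest with a window, and HUWE1 the strongest in a later intron with one. C6orf62 was the strongest intergenic peak with a window, and LOC124901372, a long noncoding RNA, starts inside the island peak nearest FOXO3. GSTP1, ASXL2 and TUBA1C led the lists of methylation-prone tumour suppressors, Polycomb and Trithorax subunits, and mitotic genes among peaks with a window.
NPM1, chr5:171387599-171387898, plus strand: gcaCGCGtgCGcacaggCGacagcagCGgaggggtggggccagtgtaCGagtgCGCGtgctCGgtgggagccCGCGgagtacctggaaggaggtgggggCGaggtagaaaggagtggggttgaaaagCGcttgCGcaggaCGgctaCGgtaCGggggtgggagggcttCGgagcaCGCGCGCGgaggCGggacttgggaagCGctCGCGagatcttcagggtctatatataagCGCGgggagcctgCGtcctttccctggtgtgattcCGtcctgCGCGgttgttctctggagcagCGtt
BRAF, chr7:140924219-140924518, minus strand: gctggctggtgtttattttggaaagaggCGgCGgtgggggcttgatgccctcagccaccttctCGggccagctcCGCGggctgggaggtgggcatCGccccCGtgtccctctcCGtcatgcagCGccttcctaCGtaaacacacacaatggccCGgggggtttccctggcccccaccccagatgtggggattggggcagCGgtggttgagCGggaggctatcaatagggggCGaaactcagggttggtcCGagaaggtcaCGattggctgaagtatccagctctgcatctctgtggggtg
EPC2, chr2:148644501-148644800, plus strand: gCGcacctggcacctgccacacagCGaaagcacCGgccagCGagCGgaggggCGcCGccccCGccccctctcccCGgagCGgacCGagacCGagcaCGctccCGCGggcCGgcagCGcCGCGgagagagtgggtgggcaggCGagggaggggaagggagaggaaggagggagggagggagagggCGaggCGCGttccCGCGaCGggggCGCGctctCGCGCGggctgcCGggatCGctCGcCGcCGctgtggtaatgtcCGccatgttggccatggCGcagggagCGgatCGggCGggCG
HUWE1, chrX:53684087-53684386, minus strand: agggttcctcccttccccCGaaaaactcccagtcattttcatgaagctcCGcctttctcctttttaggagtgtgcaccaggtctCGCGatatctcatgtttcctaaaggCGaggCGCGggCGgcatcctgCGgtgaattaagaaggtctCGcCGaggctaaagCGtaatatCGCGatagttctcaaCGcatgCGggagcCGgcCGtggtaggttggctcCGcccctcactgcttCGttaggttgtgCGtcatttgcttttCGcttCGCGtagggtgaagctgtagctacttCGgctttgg
C6orf62, chr6:24720787-24721086, minus strand: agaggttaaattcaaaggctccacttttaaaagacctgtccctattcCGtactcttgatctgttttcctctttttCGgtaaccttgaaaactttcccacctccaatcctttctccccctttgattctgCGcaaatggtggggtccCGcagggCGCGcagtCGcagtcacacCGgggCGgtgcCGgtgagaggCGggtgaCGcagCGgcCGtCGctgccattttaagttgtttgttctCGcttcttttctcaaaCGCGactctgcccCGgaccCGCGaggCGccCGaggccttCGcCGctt
LOC124901372, chr6:108558457-108558756, minus strand: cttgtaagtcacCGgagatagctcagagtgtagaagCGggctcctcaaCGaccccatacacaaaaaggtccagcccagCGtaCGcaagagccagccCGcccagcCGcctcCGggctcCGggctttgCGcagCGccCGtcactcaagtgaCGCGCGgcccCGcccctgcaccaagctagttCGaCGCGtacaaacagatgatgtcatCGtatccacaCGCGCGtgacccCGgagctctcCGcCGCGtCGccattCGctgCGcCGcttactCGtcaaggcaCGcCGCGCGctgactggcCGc
GSTP1, chr11:67583562-67583861, plus strand: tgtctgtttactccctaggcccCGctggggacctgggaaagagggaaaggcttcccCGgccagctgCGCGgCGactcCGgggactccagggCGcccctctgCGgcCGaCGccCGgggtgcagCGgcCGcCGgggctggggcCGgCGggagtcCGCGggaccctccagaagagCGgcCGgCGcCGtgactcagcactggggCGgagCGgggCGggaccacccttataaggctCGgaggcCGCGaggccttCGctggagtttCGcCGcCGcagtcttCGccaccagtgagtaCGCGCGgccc
ASXL2, chr2:25878438-25878737, minus strand: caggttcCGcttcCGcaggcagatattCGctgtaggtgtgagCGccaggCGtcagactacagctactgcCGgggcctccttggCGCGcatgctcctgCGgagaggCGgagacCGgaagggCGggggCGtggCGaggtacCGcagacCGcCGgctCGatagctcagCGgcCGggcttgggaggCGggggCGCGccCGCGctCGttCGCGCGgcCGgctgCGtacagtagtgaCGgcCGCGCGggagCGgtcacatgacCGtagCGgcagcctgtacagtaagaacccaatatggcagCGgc
TUBA1C, chr12:49264832-49265131, plus strand: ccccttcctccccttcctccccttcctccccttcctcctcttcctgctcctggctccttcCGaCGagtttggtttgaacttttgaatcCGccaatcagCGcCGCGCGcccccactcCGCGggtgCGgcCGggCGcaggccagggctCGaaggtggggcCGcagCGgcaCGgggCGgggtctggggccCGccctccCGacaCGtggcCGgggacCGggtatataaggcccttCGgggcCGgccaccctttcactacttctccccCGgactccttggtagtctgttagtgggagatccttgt

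The 9 windows differed in CG content. EPC2 had 42 CG dinucleotides at 76.7% G and C, and LOC124901372 had 37 at 65.3%. BRAF had 16, with an observed over expected CG ratio of 0.547, against 1.12 in NPM1. Over the 348 windows wholly inside control island peaks, the median was 29 CG dinucleotides, 67.7% G and C and a ratio of 0.858. All 34961 RefSeq windows had medians of 14, 58.7% and 0.580, and the 7313 windows inside control promoter peaks had 28, 67% and 0.874. Island peaks were chosen by their CpG island annotation, so higher values than in all windows were largely built into that choice. The start windows in island peaks lay close to those in promoter peaks in these medians. Of the 348, 84 were in island peaks centred farther than 1000 bp from a start, with medians of 28.5, 68.3% and 0.855. All windows are RefSeq gene starts, so island peaks without such a start are not described by them.

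Motifs were searched by their letters on both strands in the same windows, and none of them contains another. The choice by CpG island annotation also bears on motif shares, since it favours windows of a certain base content. Shares were not matched for base content, so their differences from all windows do not show a preference for any motif or its factor. GGGCGG, the GC box bound by Sp and KLF factors, was in 81.0% of windows inside control island peaks, 77.6% of those inside promoter peaks and 45.0% of all windows. CCGGAAG, an ETS factor core, was in 19.5%, 23.7% and 10.3% in the same order. CACGTG, the E-box of MYC and USF, was in 12.6%, 10.6% and 7.27%. TATAAA, the TATA box, was in 2.30% of windows inside island peaks, 3.54% inside promoter peaks and 11.5% of all. CCAAT, bound by NF-Y, was in 34.5%, 41.3% and 34.6%, and TGACGTCA, the cyclic AMP response element, was in 2.30%, 3.86% and 1.85%. Among the printed windows GGGCGG was found in all but NPM1 and BRAF, and the window of NPM1 held none of the 6 motifs.

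The first comparison asked how many control island peaks were also found after the drug. A drug peak overlapped 1468 of the 2459 by at least 1 bp (59.7%, 57.7 to 61.6), against a background of 39.1% for all control peaks. The share was 74.4% (73.5 to 75.3) for promoter peaks and 27.4% (26.9 to 27.9) for other peaks away from promoters. Intron and intergenic peaks outside CpG islands were overlapped in 25.8%. Seen from the drug list, a control peak overlapped 1435 of 1500 island peaks (95.7%, 94.5 to 96.6), against a background of 70.2% for all drug peaks and 49.9% for intron and intergenic drug peaks outside islands. Only 65 drug island peaks had no control peak, and these were small, with a median width of 200 bp and a highest score of 187.

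Overlap was set out by place and by distance. First introns held 1165 control island peaks, of which 60.9% (58.0 to 63.7) were overlapped, intergenic DNA held 913 with 60.4% (57.1 to 63.5), and later introns held 381 with 54.6% (49.4 to 59.7). Peaks outside islands and repeats in the same 3 places were overlapped in 24.1%, 33.7% and 20.2%. By distance to the nearest start, the share was 63.5% (60.4 to 66.6) within 1000 bp and 55.2% (51.4 to 59.0) up to 10000 bp. From there to 50000 bp 359 of 598 were overlapped (56.0 to 64.0%), and beyond it the share was 55.4% (48.1 to 62.5) for 195 peaks. The intervals of the last 3 distance classes overlapped one another. The class within 1000 bp was mixed. On chromosomes with RefSeq windows, 403 of its 460 peaks on a window (87.6%, 84.2 to 90.5) were overlapped. Of its 486 peaks without one, 199 were overlapped (40.9%, 36.5 to 45.5). Their median control scores were 443.5 and 97, and their median widths were 887 and 405 bp. In the drug list the peaks farther than 50000 bp were the least often overlapped, with 125 of 142 (81.5 to 92.9%).

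**Figure D1:**
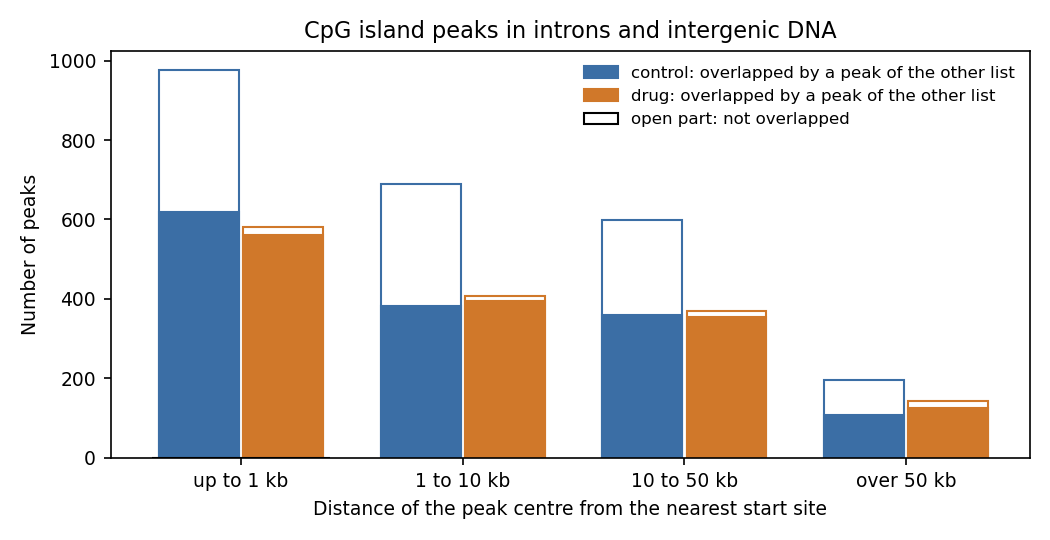
Number of CpG island peaks in introns and intergenic DNA (y axis) by distance of the peak centre from the nearest start (x axis), for control and drug. Filled parts are peaks overlapped by the other list and open parts are not. Most of the open area belongs to the control list, in which 991 peaks had no drug peak, against 65 the other way.

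Island peaks were stronger and wider than most peaks away from promoters. The control island peaks had a median score of 161 (quartiles 67 and 419) and a median width of 517 bp, other peaks away from promoters had 64 and 298 bp, and promoter peaks had 327 and 603 bp. Above the median rank of the control list by score lay 69.9% of the island peaks, 38.6% of the other peaks away from promoters and 84.6% of the promoter peaks. Overlapped control island peaks had a median score of 343.5 and those without a drug peak 65. No unmatched island peak scored above 363, and all 401 in the strongest of 10 equal bins of the list were overlapped. The 180 control island peaks of 200 bp, the smallest width in the list, were overlapped in 8.33% (4.74 to 13.4).

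Overlap was therefore set out at like control score, in those bins. In the weakest bin 5.47% of island peaks, 4.31% of other peaks away from promoters and 6.90% of promoter peaks were overlapped. In the eighth bin, with scores from 169 to 295, the shares were 83.4% (79.2 to 87.1), 73.2% (71.5 to 74.8) and 80.3% (78.2 to 82.3). Weighted to the scores of the island peaks, other peaks away from promoters reached 54.1%, which left a difference of 5.59 percentage points (4.22 to 6.96) where the unweighted shares were 59.7% and 27.4%. Weighted promoter peaks reached 59.0%, a difference of 0.723 points (-0.806 to 2.25). The first difference depended on the overlap rule: when 1 drug peak had to cover at least 50% of the control peak, it was 0.364 points (-1.30 to 2.03). The difference from promoter peaks depended on it too and turned in sign, with -1.97 points (-3.74 to -0.208) under that coverage rule, -3.58 (-5.29 to -1.88) when the midpoint had to lie in a drug peak, and 3.24 (1.55 to 4.94) when a drug peak within 500 bp counted.

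**Figure D2:**
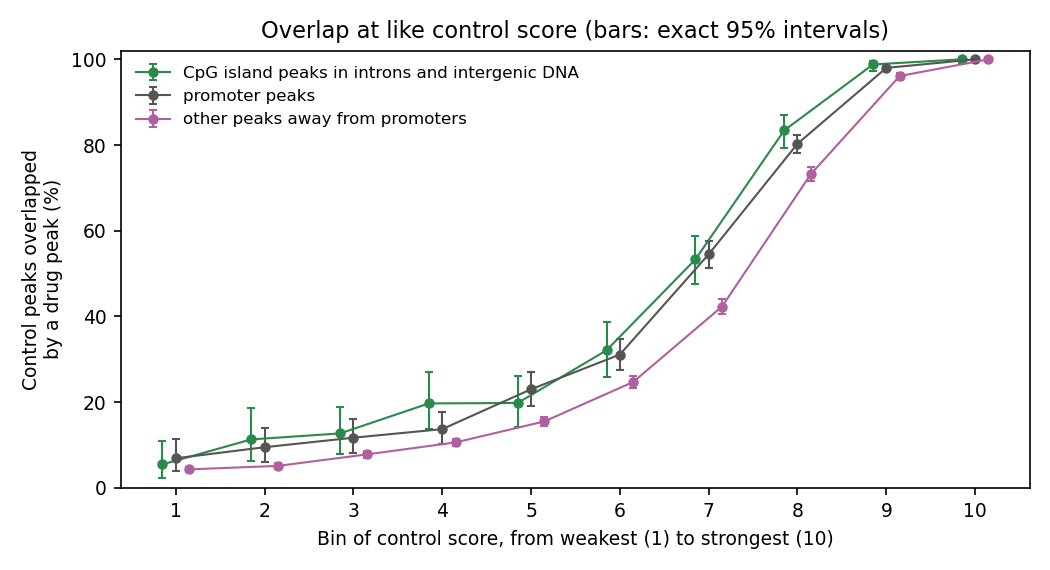
Percent of control peaks overlapped by a drug peak (y axis) in 10 bins of control score from weakest to strongest (x axis), for island peaks, promoter peaks and other peaks away from promoters. Points are shares and bars are exact 95% intervals for counting error. All 3 classes climb with score under the rule of at least 1 bp shared, and island peaks lie nearer to promoter peaks than to the others in the eighth bin.

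The drug peaks that met control island peaks were narrower, and drug peaks were narrower in every class compared. Median widths in control and drug were 517 and 383 bp for island peaks and 603 and 436 bp for promoter peaks. For other peaks away from promoters they were 298 and 200 bp. The pair shares that follow were taken for island peaks only, so they do not set these apart from other classes. The 1468 overlapped control peaks had a median width of 704.5 bp and their drug partners 419 bp. The partner was narrower in 1337 pairs (91.1%) and wholly inside the control peak in 1087 (74.0%). In 1080 pairs (73.6%) the partner was itself an island peak away from promoters, and in 225 (15.3%) it was classed as a promoter peak. Nearly all of the latter were close to a start: 222 of the 620 pairs within 1000 bp (35.8%), against 3 of 848 farther out (0.354%). Both lists named the same nearest gene in 98.4% of pairs. Of the 991 control island peaks without a drug peak, 212 (21.4%) had one within 500 bp.

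RefSeq start windows set apart island peaks that the authors' annotation had placed away from promoters. On chromosomes with windows, 608 of 2392 control island peaks (25.4%) overlapped one, against 1.46% of intron and intergenic peaks outside islands and 77.4% of promoter peaks. Island peaks with a window were overlapped by a drug peak in 83.4% (80.2 to 86.3) and had a median score of 398. The 1784 without a window were overlapped in 52.1% (49.7 to 54.4) and had a median score of 128, so strength differed along with the window. Median widths were 835.5 bp with a window and 416.5 bp without, so width differed as well. A wider peak meets a window or a drug peak more easily at 1 bp shared, and how that bears on these shares was not tested. Distance differed too, and the gap was widest within 1000 bp, at 87.6% and 40.9%. Up to 10000 bp the shares were 66.7% (54.0 to 77.8) with a window and 54.5% (50.5 to 58.5) without. From there to 50000 bp they were 76.3% (63.4 to 86.4) and 58.7% (54.4 to 63.0), and beyond it 65.2% (42.7 to 83.6) and 54.8% (46.9 to 62.4). Farther than 1000 bp from the authors' starts, 148 island peaks met a RefSeq window, of which 86 belonged to long noncoding RNAs and 62 to protein-coding genes. Transfer RNA genes, which RNA polymerase III transcribes, were met by 48 control island peaks (1.95%), against 127 of 27182 intron and intergenic peaks outside islands (0.467%). Of those 48, 43 (89.6%, 77.3 to 96.5) were overlapped by a drug peak, against 82 of the 127 (64.6%, 55.6 to 72.8). The 48 had a median control score of 277, against 152 for the 127 and 161 for all control island peaks. Their median width was 844 bp, against 401 bp for the 127. Of the 48, 11 lay in the 1 tandem group nearest FCGR2A, so they were not spread evenly over the genome.

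The strongest island peaks lay mostly in first introns close to a start. At NPM1, which encodes a nucleolar histone chaperone, the control peak chr5:171387411-171388689 scored 4479 and its centre was 201 bp downstream of the start. Its drug partner scored 1717 in the drug list and was classed as a promoter peak. At PMF1, which encodes a kinetochore protein, the peak chr1:156216408-156216965 in the first intron was 3698 bp downstream of the start. Its score was 3299 in control and that of its partner 1242 in drug. CIC, a transcriptional repressor, followed with 3236 in control and 1023 in drug. Next came SARAF, a regulator of calcium entry, with 2909 and 824, and SPAG4, a nuclear envelope protein, with 2787 and 959. CD248, TMEM9, MAN2C1, NDEL1 (a dynein regulator) and TANK (a TRAF-binding adaptor) completed the first 10, with control scores from 2667 down to 2441. All 10 had a drug peak.

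Among intergenic peaks the strongest was that nearest CD248, with 2667 in control and 779 in drug, above several of the first-intron peaks just named. The next, nearest C6orf62, scored 2346 in control and 894 in drug, and the one nearest SERTAD2, 97287 bp upstream of its start, scored 2337 and 839. In later introns the highest control scores were 1576 at ETV2, an ETS factor of blood vessel development, 1524 at HUWE1, a ubiquitin ligase, and 1426 at TPM3, a tropomyosin. The HUWE1 peak chrX:53682986-53684629 in intron 2 of 83 held 2 RefSeq windows of the same gene, one of which is printed above. The widest peak, 2436 bp, lay 4749 bp upstream of KLF9, a Krüppel-like factor, and its score of 517 was far from the highest. EPC2, a homologue of the fly Enhancer of Polycomb protein, had 2031 bp and a score of 1463.

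Control island peaks without a drug peak were led by BRAF, a kinase of the MAPK pathway. Its peak chr7:140923981-140924741 in the first intron scored 363, which placed it within the top 16.9% of the control list. Peaks nearest GARNL3 (354), TM9SF3 (341), COBL (320) and ZNF722P (317) followed. The remaining 5 of the first 10 scored from 281 nearest TEX44 down to 255 at PRR25. The drug island peaks without a control peak were led by 1 near DANT1 with a drug score of 187, and the next, near ANKRD20A11P, scored 78. The other 8 scored from 75 near MOG down to 55 at RPS6KA3.

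Island peaks were spread over many genes, with a few dense groups. In control they were nearest to 2123 genes, 1893 of which had 1 peak. The most peaks were nearest DANT1 (32), FRG2B (12) and FCGR2A (11), and then BCOR, GSE1 and KDM6B had 5 each. On chromosome X, 7.55% of control peaks and 9.01% of drug peaks were island peaks, the highest shares of the 23 chromosomes. That place rested on DANT1: without its peaks the shares were 5.49% and 5.63%, and chromosome 13 was highest in control (6.94%) and chromosome 19 in drug (8.30%). The 28 peaks in the DANT1 intron and those nearest FRG2B and FCGR2A lie in near-identical tandem copies, where the place of a read is uncertain. How that bears on the values was not tested.

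DANT1 is a noncoding RNA gene at DXZ4, a macrosatellite on the X chromosome whose repeat units each hold a CpG island and CTCF sites. All 32 control island peaks nearest DANT1, between 115727572 and 115888855, were overlapped by a drug peak. The 28 in its intron had control scores from 121 to 615. A separate group of 4, between 115727572 and 115737861, had control scores from 160 to 687. Across all 32, control scores had a median of 262.5, and the drug partners scored from 86 to 632 with a median of 199.5. Island peaks elsewhere with control scores from 121 to 686 were overlapped in 893 of 1077. Their drug partners had a median score of 97, lower than for the 32 peaks nearest DANT1. Within the intron of DANT1, 28 control peaks stood over 45360 bp. The median distance from each peak to the next but one was 2995.2 bp in control and 2991.2 bp in drug. Peaks over 400 bp wide (15, median score 343) and narrower ones (13, median score 179) each recurred at a median of 2986.5 bp.

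**Figure D3:**
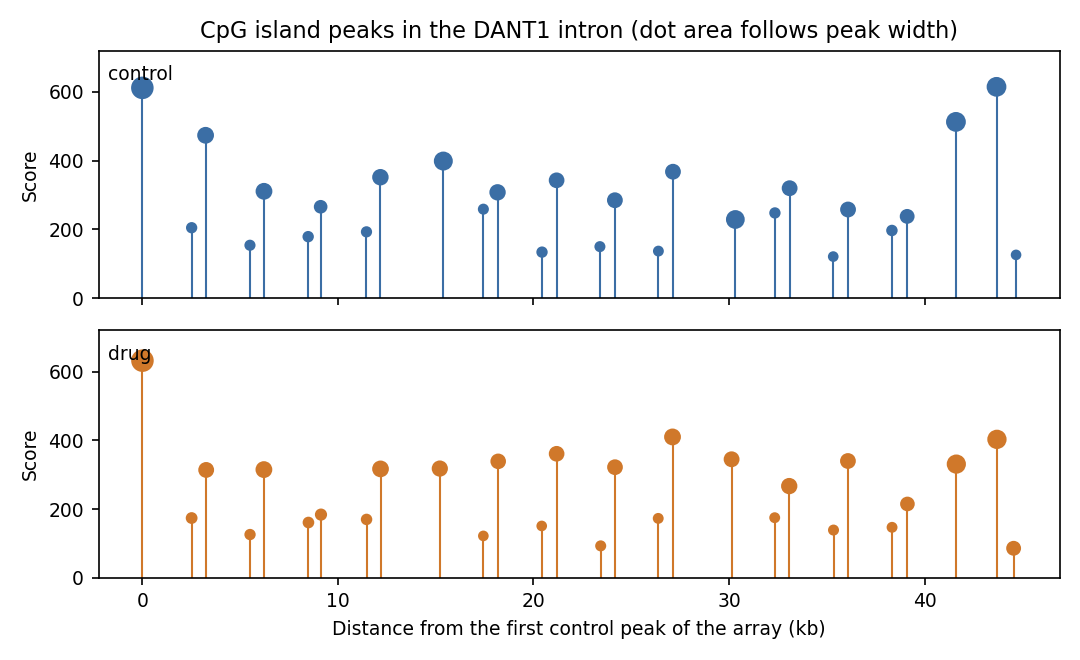
Score of each CpG island peak (y axis, authors' score within each list) in the DANT1 intron by distance from the first control peak in kb (x axis), for control above and drug below. Dot area follows peak width. Wide and narrow peaks recur along the array in both lists.

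The other dense groups differed in strength. The 11 control island peaks nearest FCGR2A, chr1:161440248-161471784, all lay on transfer RNA genes, and RefSeq places 22 such genes in that span. Of these peaks 10 were overlapped, with control scores from 74 to 992 (median 332), and the drug partners had a median score of 212.5. Island peaks elsewhere in that range of control scores had drug partners with a median of 100. The 12 peaks nearest FRG2B, near the end of chromosome 10, all lay on DUX4-like pseudogenes and were weak, with scores from 22 to 107. A drug peak overlapped 9 of the 12, against 159 of 900 (17.7%) island peaks elsewhere in that range. From the drug list the order was the other way, with 9 of 12 drug island peaks nearest FRG2B overlapped by a control peak, against 839 of 892 (94.1%) elsewhere in their range of drug scores.

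**Figure D4:**
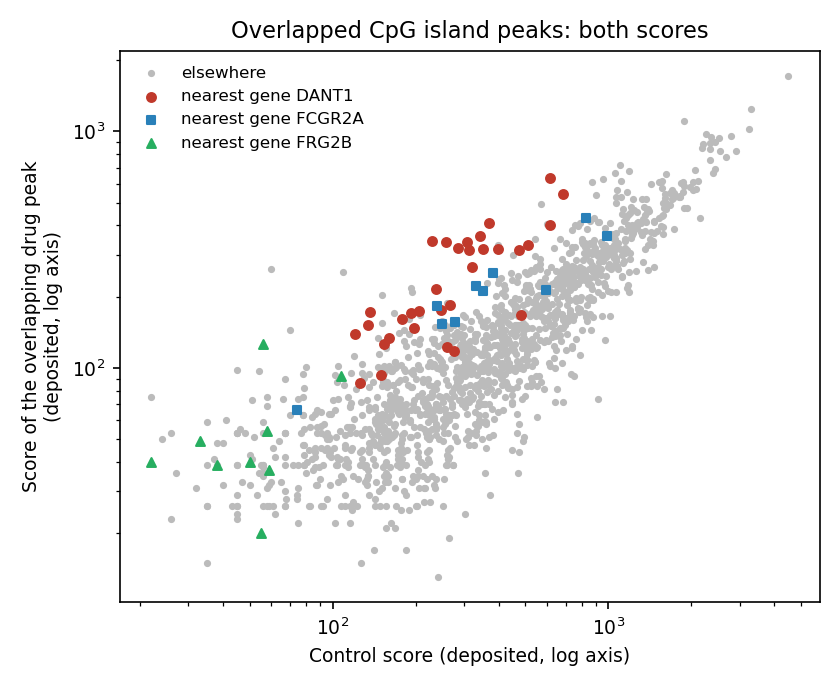
Score of the overlapping drug peak (y axis, log scale) against the control score (x axis, log scale) for the 1468 overlapped control island peaks. Peaks nearest DANT1, FCGR2A and FRG2B are marked, and those of DANT1 lie mostly above other peaks of like control score.

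Gene lists were read by their nearest island peaks, and each list's count stands beside 59.7% overlapped and a median score of 161 for all control island peaks. No list was matched to these peaks by score. Because overlap rose with score, a list's share near 59.7% does not mean a like share at like score. Polycomb and Trithorax subunits, which maintain silent and active chromatin, had 28 control peaks near 17 of 58 genes, 21 overlapped, with a median score of 210.5. ARID1B, a BAF remodelling subunit, had a peak 57888 bp upstream of its start that scored 1328 in control and 516 in drug. ASXL2 had 1152 and 345, and KDM6B, an H3K27 demethylase, had 830 and 244. PCGF5 (217), SETD1B (116) and BCOR (96) had peaks without a drug partner.

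Immediate early genes, which respond within minutes to signals, had 25 control peaks, 15 overlapped, with a median score of 215. FOS had 1 peak 19595 bp upstream of its start with scores of 1980 in control and 582 in drug, and another 1342 bp upstream with a control score of 215 and no drug peak. CCN1 had 757 and 401, and NR4A1 had 726 and 252. DUSP1 (145) and FOSB (139) had peaks without a partner. Mitotic genes had 9 control peaks, 8 overlapped, with a median score of 238. The tubulin genes TUBA1C (1883 in control, 472 in drug) and TUBA1B (1161 and 379) and the kinase CDK1 (638 and 143) led this list, all within 1000 bp of a start, and KIF24 (40) had no drug peak. The list does not hold PMF1, the kinetochore gene with the higher scores given above.

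Developmental regulators had weaker peaks. HOX cluster genes had 3 control peaks, nearest HOXA9 (65), HOXA6 (60) and HOXA3 (20), with 0 overlapped and 0 drug island peaks. Other homeobox genes had 19, of which 4 were overlapped, with a median score of 55. PAX5 scored 229 in control and 35 in drug, and BARX2 scored 185 and had no drug peak. SOX, FOX, GATA, TBX and related factors had 21, of which 8 were overlapped, with a median score of 68, led by TBX18 (620 and 168), FOXO3 (496 and 127) and FOXK1 (459 and 178). Across all control island peaks with scores from 51 to 63, 30 of 152 (19.7%) were overlapped, the score range that holds the homeobox median. In the range from 63 to 80, which holds the median of the SOX, FOX, GATA and TBX list, 37 of 187 (19.8%) were overlapped. That list also held TBX18, FOXO3 and FOXK1, whose control scores of 620, 496 and 459 lay far above this range. PAX5 (229) and BARX2 (185) likewise lay above the range given for the homeobox genes. The ranges therefore do not match these lists by score, and whether either list differed from peaks of like score was not tested. Clustered protocadherins had 0 peaks in both lists.

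The remaining lists were small. Imprinted genes had 10 control peaks, 7 overlapped, including a peak 108293 bp upstream of JMJD1C with 801 in control and 339 in drug. The list of tumour suppressors often methylated in liver cancer had 3. These were GSTP1, a glutathione transferase (942 and 261), SOCS1, a cytokine signalling inhibitor (142 and 59), and VIM (87, no drug peak). VIM encodes a filament protein, and its place in that list does not make it a tumour suppressor. The drug partners at GSTP1 and SOCS1 were not island peaks by class, so the drug list counted 0 for this list. CpG-binding and DNA methylation proteins had 4, of which 3 were overlapped, led by ZBTB38 (370 and 104), and histones had 1, nearest HIST1H1A (715 and 254). Hepatocyte genes had 10, of which 4 were overlapped, led by SREBF1 (549 and 84). Wnt pathway genes had 7, of which 3 were overlapped, led by BCL9 (549 and 175), and the WNT11 peak (174 and 141) lay on the transfer RNA gene TRP-AGG2-4.

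Markers of other cell types were also read. Neuronal markers had 5 control peaks, 4 overlapped, led by SLC17A7 (411 and 132). Fibroblast and endothelial markers had 2, in the first intron of COL1A1 (67) and in intergenic DNA 24785 bp downstream of the COL6A1 start (57). Blood cell markers had 1, in intergenic DNA 52556 bp upstream of the CD34 start (66). All 3 were without a drug peak, and the last 2 were assigned to their genes only as the nearest. Of 11 defining hepatocyte markers, 6 had a promoter peak in control and 4 in drug, among them HNF4A and SERPINA1 in both, while ALB and AFP had none. Promoter peaks were also found at 4 of 6 neuronal markers in control (SNAP25, SYN1, SYP and TUBB3) and 2 in drug. They were found at 2 of 6 blood markers in both lists, and at 1 of 7 fibroblast and endothelial markers in each. With the antibody not named, a peak was not read as a sign of gene activity.

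**Figure D5:**
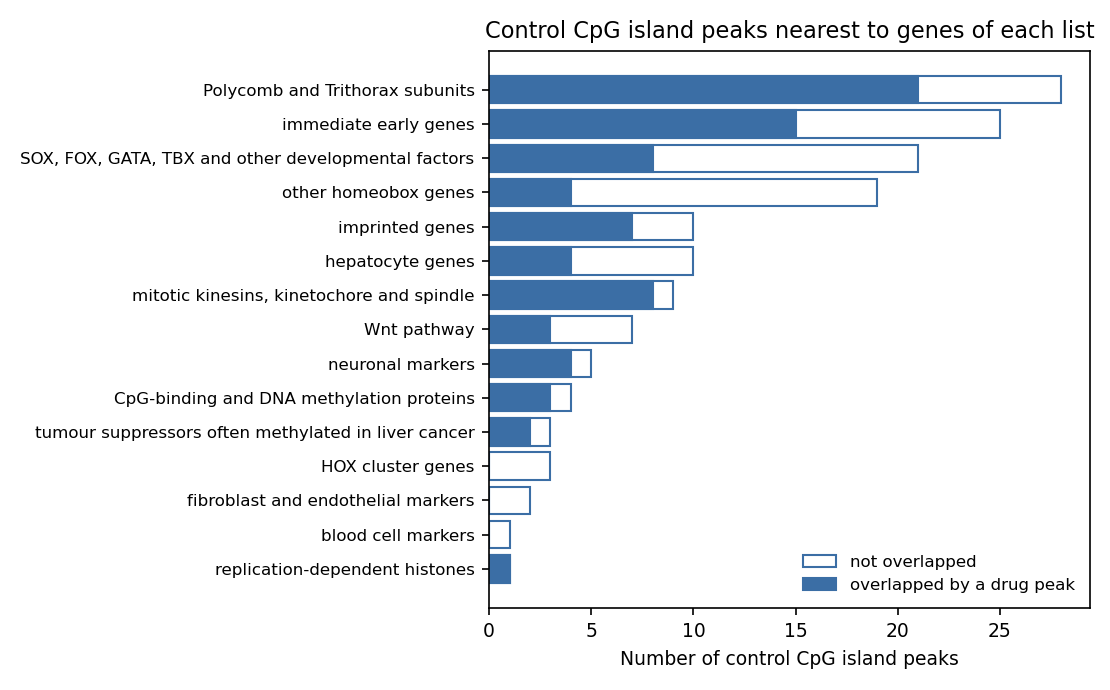
Number of control CpG island peaks (x axis) nearest to the genes of each list (y axis). Filled parts are overlapped by a drug peak and open parts are not. Polycomb and Trithorax subunits and immediate early genes hold the most, and most homeobox peaks are open.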

How the data were processed

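Each library came as 1 annotated peak list in hg38 coordinates, per the submitters' processing notes. The score of each peak was deposited by the authors, and peaks were called per library, per the file headers. Not given in the sources used here were the aligner, the peak caller settings and the depth. In the control list 1 emptied line was not analysed here. Deeper libraries can give more, wider and higher scoring peaks.

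Samples were grouped by title. Peaks were compared by position, with at least 1 bp shared. For matching, control peaks were ranked by score and cut into 10 equal bins, and the reference class was weighted to the island peaks. Python 3.11.15, numpy 2.4.6, pandas 2.3.3, scipy 1.17.1 and matplotlib 3.10.9 were used, and the overlap and matching code was tested on simulated data. Groups of neighbours had at least 4 island peaks with gaps of up to 20000 bp. Gene names were those of the files, and 2420 of 2424 gene identifiers of island peaks and 751 of 755 list symbols matched a RefSeq table of GRCh38.p14. Start windows were not used on chromosome 8.

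The members, the 16 gene lists and the tests were chosen with earlier results of these data known. Named genes were KIF11, the 10 strongest control island peaks, the 10 strongest without a partner in each list, the 5 widest, the 3 strongest per place, the genes with most peaks, and up to 3 overlapped and 3 unmatched peaks per list, of which not all are printed. Alternatives were other overlap rules, score and width limits, lists of equal length, distance to a start, merging, other bins and, added after seeing the data, removal of arrays or start windows, chromosome X without DANT1, and another reference class.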

Additional observations from a re-analysis of the deposited data

How the results depend on the processing

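Across 14 alternatives, 28 of 57 values stayed within the counting interval of the value reported and 29 moved out of it. The difference from promoter peaks, whose reported interval held 0, turned negative under 2 overlap rules. The share of control island peaks with a drug peak (59.7%) was 42.0% when 50% of the peak had to be covered, 48.4% by midpoint, 68.3% when a peak within 500 bp counted, 74.9% with lists of equal length, 57.2% at least 1000 bp from a start, 66.5% after merging and 52.1% without RefSeq start windows. The share of drug island peaks with a control peak (95.7%) was 94.3% under both the coverage and midpoint rules, 97.3% within 500 bp, 98.4% at scores of at least 50, 91.3% with lists of equal length and 98.2% without peaks of 200 bp. Island peaks as a share of the control list (5.29%) were 6.28% at scores of at least 50, 6.94% with lists of equal length, 5.69% without peaks of 200 bp, 3.19% at least 1000 bp from a start and 4.81% after merging. In drug (5.59%) the values were 7.51%, 7.66%, 3.42% and 5.05% for the score, width, distance and merging settings. The matched difference from other peaks away from promoters (5.59 points) was 0.364 under the coverage rule, 1.79 by midpoint, 11.6 within 500 bp and 3.72 with 5 bins of width added. That from promoter peaks (0.723 points) was -1.97, -3.58 and 3.24 under the coverage, midpoint and 500 bp rules. By definition the coverage and midpoint rules could only lower an overlapped share, and the 500 bp rule could only raise it. The size of those moves, and why the other values moved, was not tested. Leaving out island peaks in the 5′ untranslated class changed nothing, since there were none. The drug list was already the shorter, so its island share with lists of equal length was 5.59% by design. Values of both kinds could not move and are counted among those that stayed. No paired analysis was possible because each group held 1 library. Depth was unknown, and it limits every comparison of the lists.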
